A study of Mus musculus with 10 samples.

Results

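The 10 genes described here are markers of pericentral hepatocytes or readouts of Wnt/β-catenin signalling in the liver: Glul, Oat, Lhpp, Slc1a2, Rhbg, Axin2, Tbx3, Lgr5, Cyp2e1 and Cyp1a2. They were found in the deposited table by matching its Ensembl gene identifiers to these symbols, and all 10 had a row among the 21939 genes of the table and passed the filter on low counts. Their RNA was measured by sequencing of poly-A RNA from hepatocytes freshly isolated from the livers of adult male mice 12 days after injection of an adeno-associated virus (AAV8Cre) that expresses Cre recombinase under the hepatocyte-active thyroxine-binding globulin promoter. The labels give an age of 8 to 9 weeks without saying whether it was that at injection or at isolation. The libraries comprised 3 from controls (C57BL6/j mice without floxed alleles), 2 from Nrf2 flox/flox mice labelled Nrf2 KO, 2 from p65 flox/flox mice labelled p65 KO, and 3 from mice with both floxed genes, labelled Nrf2:p65 DKO (DKO). Every mouse received AAV8Cre, controls included, and each library came from 1 mouse. Nrf2 is a transcription factor of the antioxidant response and p65 a subunit of the inflammatory transcription factor NF-κB. The genotypes were compared library by library for the level of the pericentral programme, which also depends on how many pericentral cells a preparation held. In bulk RNA, fewer cells of a type and less RNA per cell cannot be told apart.

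Hepatocytes differ along the axis from the portal field to the central vein. Endothelial cells of the central vein secrete Wnt ligands and R-spondin, which stabilise β-catenin in the neighbouring hepatocytes. β-catenin, with TCF/LEF factors, then drives a pericentral programme that includes glutamine synthesis, ammonia scavenging and xenobiotic metabolism, whereas urea synthesis and gluconeogenesis predominate in periportal hepatocytes. Among the 10 genes, Glul encodes glutamine synthetase, Oat the ornithine aminotransferase, Slc1a2 the glutamate transporter GLT-1 and Rhbg an ammonium transporter, and all of these are concentrated in normal liver in the innermost hepatocytes around the central vein. Lhpp, which encodes a histidine phosphatase, shows the same zonation. Axin2, a negative feedback regulator of β-catenin, Tbx3, a transcription factor, and Lgr5, a receptor for R-spondins, are classical Wnt target genes. Cyp2e1 and Cyp1a2 are cytochrome P450 genes with a broader pericentral domain.

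The genes lay on 8 chromosomes of the mouse genome (GRCm39), and 3 of them on chromosome 7. Oat (chromosome 7, 132159153 to 132191517, minus strand) and Lhpp (132212350 to 132308476, plus strand) were neighbours, 20832 bases apart, with Nkx1-2, which had 0 counts in all 10 libraries, as the 1 gene of the table between them. Cyp2e1 lay further along the same chromosome (140343652 to 140355167, plus strand). The others were Glul (chromosome 1, 153775690 to 153785469, plus strand), Slc1a2 (chromosome 2, 102488574 to 102621129, plus strand), Rhbg (chromosome 3, 88150181 to 88162043, minus strand), Tbx3 (chromosome 5, 119806298 to 119822797, plus strand), Cyp1a2 (chromosome 9, 57584196 to 57590986, minus strand), Lgr5 (chromosome 10, 115286216 to 115423685, minus strand) and Axin2 (chromosome 11, 108811169 to 108841609, plus strand). Rhbg overlapped the predicted protein-coding gene Gm38392 on the same strand, and the counts of Gm38392 summed to 174 over the libraries. Overlap was judged from whole gene spans and not from exons, so the division of reads between these genes was not tested. Oat and Lhpp lay within the annotated span of Fgfr2, a growth factor receptor gene with a summed count of 12165. Fgfr2 and Oat share a strand, and whether they share exons or reads was likewise not tested.

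Promoter windows of 300 bases, 250 before and 50 after a start site, were available from RefSeq (table build GRCm38.p6) for 6 of the 10 genes: Glul, Oat, Slc1a2, Axin2, Cyp2e1 and Cyp1a2. Each window matched its chromosome in GRCm39 exactly and at 1 place. The windows of Glul, Slc1a2 and Oat are shown because these genes were called higher in the libraries labelled p65 KO. That of Axin2 is shown as a classical Wnt target that was not called there. Tbx3 and Lgr5 were not called there either and had no window. Capitals mark matches, on either strand, to the TCF/LEF core CTTTG or its longer form CTTTGAT, to the κB core (GGG and CC, separated by 5 bases of any kind) or to the antioxidant response element core TGACNNNGC.
Glul, chr1:153775425-153775724, plus strand: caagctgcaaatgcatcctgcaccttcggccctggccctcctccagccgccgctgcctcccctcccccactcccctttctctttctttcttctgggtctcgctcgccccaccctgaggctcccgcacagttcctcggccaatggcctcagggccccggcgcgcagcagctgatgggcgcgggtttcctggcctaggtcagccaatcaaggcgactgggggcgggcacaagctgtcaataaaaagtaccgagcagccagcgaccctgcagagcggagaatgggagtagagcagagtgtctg
Slc1a2, chr2:102536533-102536832, plus strand: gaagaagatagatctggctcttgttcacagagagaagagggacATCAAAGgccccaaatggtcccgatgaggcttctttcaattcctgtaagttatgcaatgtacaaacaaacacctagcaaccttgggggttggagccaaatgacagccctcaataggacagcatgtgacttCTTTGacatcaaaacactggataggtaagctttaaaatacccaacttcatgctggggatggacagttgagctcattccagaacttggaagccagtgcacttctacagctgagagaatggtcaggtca
Oat, chr7:132178078-132178377, minus strand: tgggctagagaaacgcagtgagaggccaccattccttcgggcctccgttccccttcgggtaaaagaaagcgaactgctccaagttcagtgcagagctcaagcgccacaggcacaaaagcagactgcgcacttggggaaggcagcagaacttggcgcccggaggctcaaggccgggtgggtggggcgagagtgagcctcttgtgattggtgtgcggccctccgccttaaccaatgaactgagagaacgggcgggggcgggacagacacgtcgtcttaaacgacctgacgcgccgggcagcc
Axin2, chr11:108810925-108811224, plus strand: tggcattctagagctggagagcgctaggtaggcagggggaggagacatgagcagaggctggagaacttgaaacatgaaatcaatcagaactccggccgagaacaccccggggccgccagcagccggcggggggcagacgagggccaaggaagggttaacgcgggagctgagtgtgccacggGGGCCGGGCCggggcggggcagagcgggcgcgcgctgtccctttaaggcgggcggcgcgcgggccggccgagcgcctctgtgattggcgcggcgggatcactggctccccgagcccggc
The Slc1a2 and Oat windows lie inside the annotated genes, at start sites downstream of the outermost one, whereas the Glul and Axin2 windows span the annotated 5′ end. The Glul and Oat windows held none of these letters. The Slc1a2 window held the full TCF/LEF motif 207 bases before the start site on the minus strand, which overlaps a core match, and a second core match 77 bases before the start site. Among all 32851 windows of 27025 genes, 3.73% held CTTTGAT and 53.9% held CTTTG. The Axin2 window held 1 κB core, 69 bases before the start site, and 50.8% of all windows held 1 or more. No member window held TGACNNNGC, present in 12.4% of all windows, nor the xenobiotic response core GCGTG, present in 32.4%. Cyp2e1 had 1 core TCF/LEF match and 2 overlapping κB matches, and Cyp1a2 had 2 core TCF/LEF matches and 1 κB match. These matches describe letters in 1 window per gene.

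The total estimated counts per library ranged from 33707165 to 49897382, with a median of 37043490.5, and the counts below are given as normalized counts, which are counts divided by the library's relative effective size. The total counts of the targeted genes showed no loss in the libraries labelled as knockouts. Nfe2l2, which encodes Nrf2, had 2318, 1991 and 1990 normalized counts in the controls, 4739 and 5005 in the libraries labelled Nrf2 KO and 4111, 3434 and 5240 in those labelled DKO, a log2 fold change of 1.21 (SE 0.156, adjusted p = 0.00488) and 1.02 (SE 0.143, adjusted p = 0.00347) against control. Rela, which encodes p65, differed by -0.07 (SE 0.138, adjusted p = 0.765) in the libraries labelled p65 KO and by -0.00095 (SE 0.124, adjusted p = 0.998) in those labelled DKO. The table holds 1 total per gene and does not separate the exons between the loxP sites from the others, so this total does not check the deletion and the genotypes are used as labelled. Nqo1, a target gene of Nrf2, was at 180.9 to 217.5 normalized counts in the controls and 52.6 to 103.0 in the libraries labelled DKO (log2 fold change -1.35, SE 0.245, adjusted p = 0.0126), and its difference in the libraries labelled Nrf2 KO did not pass (-1.40, SE 0.28, adjusted p = 0.0561). The 5 hepatocyte markers, with albumin the most abundant in the controls, were present in every library, at 3270000 to 5253000 summed normalized counts.

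Scaled to the length of the canonical transcript and to library size, in counts per kilobase per 1000000 counts, the levels of the 10 genes spanned more than 3 orders of magnitude in the controls. Cyp2e1 was the highest at 1300 ± 102 (SD, n = 3), followed by Cyp1a2 at 143 ± 18.6, Glul at 83.0 ± 12.8 and Oat at 49.4 ± 14.4. Lhpp followed at 7.45 ± 2.71 and Tbx3 at 2.27 ± 0.109. The lowest were Slc1a2 at 0.986 ± 0.318, Axin2 at 0.883 ± 0.317, Rhbg at 0.44 ± 0.131 and Lgr5 at 0.36 ± 0.0641. Neighbours in this order did not differ beyond their spread between Slc1a2 and Axin2 or between Rhbg and Lgr5. In the libraries labelled p65 KO, Slc1a2 reached a level of 4.65 ± 0.0632 on this scale (SD, n = 2) and stood above Tbx3 at 3.18 ± 1.36, and Rhbg stood at 1.27 ± 0.102 beside Axin2 at 1.17 ± 0.0111.

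The libraries labelled p65 KO had more RNA of 3 of the 5 innermost pericentral genes than the controls. Glul, Oat and Slc1a2 rose, by 2.54-fold, 2.09-fold and 4.72-fold, and passed both thresholds used throughout, an adjusted p no higher than 0.05 by edgeR's quasi-likelihood test together with an absolute log2 fold change of 1 or more. Thus 3 of the 10 genes were called higher and none lower, where 5.05% of the 13641 genes tested were called higher and 6.59% in either direction. With the adjusted p alone, 4 of 10 passed, against 8.13% of all genes higher. All 10 log2 fold changes were above 0, which also held in Nrf2 KO against the same controls. The median over all genes tested was 0.000896 in p65 KO and 0.00185 in Nrf2 KO. In 7 of 10 both p65 KO libraries lay above all 3 controls, where this held for 26.2% of all genes tested.

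Glul had 6371, 5258 and 4719 normalized counts in the controls and 12850 and 14800 in the libraries labelled p65 KO. Both p65 KO libraries were above every other library of the study, and the groups did not overlap. The log2 fold change was 1.34 (SE 0.172, 95% interval 0.965 to 1.72, adjusted p = 0.00174). Slc1a2 had 615.1, 323.5 and 431.5 normalized counts in the controls against 2132 and 2174 in the libraries labelled p65 KO. The p65 KO libraries nearly coincided and were again above all others. The log2 fold change of Slc1a2 was 2.24 (SE 0.324, 95% interval 1.52 to 2.95, adjusted p = 0.0027). The calls of Glul and Slc1a2 held when any 1 library was left out and under each of the 10 other settings tried.

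Oat had 5529, 3119 and 3938 normalized counts in the controls and 7257 and 10280 in the libraries labelled p65 KO. The groups did not overlap, but the controls themselves differed, with control 1 the highest. The log2 fold change of Oat was 1.06 (SE 0.32, 95% interval 0.358 to 1.77, adjusted p = 0.0478), just inside the threshold. The Oat call was lost, with adjusted p-values of 0.124 without control 2, 0.111 without control 3, 0.065 without either Nrf2 KO library, 0.104 without p65 KO 1 and 0.233 without p65 KO 2. The neighbouring gene Lhpp had 784.1, 382.5 and 518.3 normalized counts in the controls and 1038 and 1199 in the libraries labelled p65 KO. It followed the order of Oat within the controls. The log2 fold change of Lhpp, 0.996 (SE 0.329, 95% interval 0.27 to 1.72), was just under the fold threshold, and its adjusted p of 0.0647 did not pass either.

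Rhbg was a gene of low counts, with 43.07, 23.6 and 31.75 normalized counts in the controls and 89.4 and 100.2 in the libraries labelled p65 KO. The groups did not overlap, and the log2 fold change was 1.53 (SE 0.506, 95% interval 0.416 to 2.65), but the adjusted p was 0.0645. The other Rh glycoprotein genes of the fixed list, Rhag and Rhcg, had 0 counts in every library. Cyp1a2 had 11150, 11990 and 9242 normalized counts in the controls and 20370 and 21540 in the libraries labelled p65 KO, without overlap. It passed on the adjusted p alone, with a log2 fold change of 0.96 (SE 0.256, 95% interval 0.392 to 1.52, adjusted p = 0.0318). Cyp2e1 had 96260, 106700 and 112600 normalized counts in the controls against 152800 and 186200, also without overlap, and a log2 fold change of 0.69 (SE 0.223, 95% interval 0.196 to 1.18, adjusted p = 0.0612).

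The 3 Wnt target genes did not pass in this comparison. Axin2 had 111.5, 212.4 and 127.9 normalized counts in the controls and 201.2 and 198.5 in the libraries labelled p65 KO. Control 2 lay above both p65 KO libraries, and the log2 fold change was 0.41 (SE 0.353, 95% interval -0.373 to 1.19, adjusted p = 0.463). Tbx3 had 426.3, 457.3 and 467.9 normalized counts in the controls and 439.9 and 822.3 in the libraries labelled p65 KO. Only p65 KO 2 stood above the controls, and the log2 fold change was 0.49 (SE 0.397, 95% interval -0.388 to 1.36, adjusted p = 0.431), or -0.034 without that library. Lgr5 had 57.42, 78.67 and 59.77 normalized counts in the controls and 82.29 and 59.54 in the libraries labelled p65 KO. These overlapped, with a log2 fold change of 0.12 (SE 0.311, 95% interval -0.569 to 0.803, adjusted p = 0.83). The intervals of all 3 genes thus included 0, and those of Axin2 and Tbx3 also included a doubling, that is a log2 fold change of 1.

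**Figure D1:**
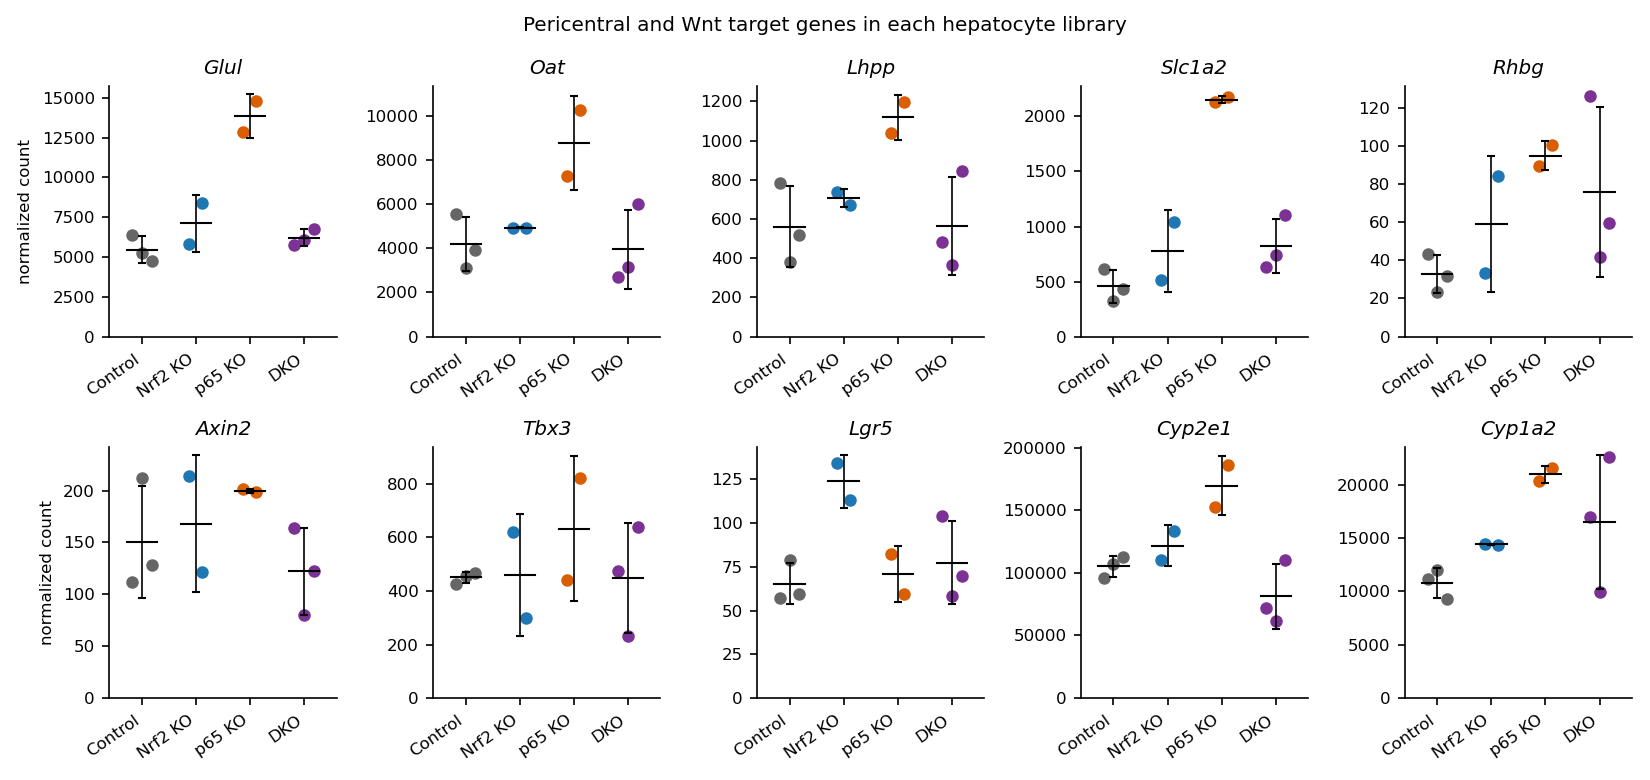
Normalized counts (linear axes from 0) of the 10 genes in each of the 10 libraries, by genotype as labelled. Points are libraries, horizontal lines the group means and bars the SD; for Glul the p65 KO libraries, at 12850 and 14800, lie above all others, whose highest is 8375, whereas for Lgr5 the Nrf2 KO libraries are the highest.

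In the libraries labelled Nrf2 KO, none of the 10 genes was called against the controls, where 0.55% of all genes tested were. All 10 log2 fold changes were above 0, with a median of 0.357, beside 0.977 in p65 KO. An unadjusted p under 0.05 was obtained for 3 genes (Glul, Slc1a2 and Lgr5), and DESeq2 and limma called 0 as well. The share of all genes with an unadjusted p under 0.05 was not computed, here or for the similar counts below. Lgr5, the R-spondin receptor, had 134.5 and 113.2 normalized counts in these libraries, above all 8 others. Its log2 fold change was 0.92 (SE 0.302, 95% interval 0.254 to 1.59) with an adjusted p of 0.316. Glul had 5845 and 8375 normalized counts, with Nrf2 KO 2 above every control, and a log2 fold change of 0.38 (SE 0.173, 95% interval 0.0032 to 0.765, adjusted p = 0.528). Slc1a2 differed more between the Nrf2 KO libraries, at 511.1 and 1039 normalized counts, and its log2 fold change was 0.77 (SE 0.325, 95% interval 0.0501 to 1.48, adjusted p = 0.487).

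The remaining genes in the libraries labelled Nrf2 KO were near the controls or spread between the libraries. Cyp1a2 had 14430 and 14370 normalized counts, both above the controls, with a log2 fold change of 0.42 (SE 0.258, adjusted p = 0.707). Together with Lgr5 it was 1 of 2 genes with no overlap, where 14.8% of all genes were higher without overlap. Rhbg had 33.61 and 84.06 normalized counts, Oat 4927 and 4939 and Lhpp 738.5 and 672.5. Of these, Oat and Lhpp fell within the range of the controls and Rhbg had 1 library within it and 1 above. Cyp2e1 had 110500 and 133100 normalized counts, Axin2 214.5 and 121.2 and Tbx3 618.9 and 298.3. The Axin2 and Tbx3 values were both higher in Nrf2 KO 1, and their log2 fold changes were 0.15 (95% interval -0.634 to 0.936) and 0.022 (95% interval -0.865 to 0.908).

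In the libraries labelled DKO, Glul, Oat and Lhpp were close to the control level, whereas Slc1a2 and Rhbg had higher means than the controls without passing the test. None of the 10 genes was called against the controls, where 2.38% of all genes tested were, and 3 (Slc1a2, Rhbg and Cyp1a2) had an unadjusted p under 0.05, with 0 called by DESeq2 or limma. Glul had 5739, 6094 and 6785 normalized counts, and its log2 fold change was 0.19 (SE 0.156, 95% interval -0.156 to 0.531, adjusted p = 0.508). The DKO libraries thus overlapped control 1, at 6371, and the interval left out a doubling. Oat had 2698, 3137 and 6004 normalized counts and a log2 fold change of -0.088 (SE 0.291, 95% interval -0.729 to 0.553). Lhpp had 481.8, 363.6 and 844.5 normalized counts and a log2 fold change of 0.0052 (SE 0.302, 95% interval -0.661 to 0.672). Both genes were highest in DKO 3, above all controls, while DKO 1 and DKO 2 lay within or below the range of the controls.

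Slc1a2 had 635.4, 741.7 and 1103 normalized counts in the libraries labelled DKO. It was the 1 gene of the 10 whose DKO libraries were all above the controls, where this held for 13.2% of all genes tested, and its log2 fold change was 0.86 (SE 0.297, 95% interval 0.202 to 1.51, adjusted p = 0.12). Rhbg had 126.2, 41.52 and 59.5 normalized counts, with DKO 1 the highest of all 10 libraries and DKO 2 within the controls (log2 fold change 1.21, SE 0.469, adjusted p = 0.16). Cyp1a2 had 16970, 9965 and 22550 normalized counts, with DKO 2 within the controls (0.61, SE 0.233, adjusted p = 0.155). Cyp2e1 had 71660, 61380 and 110600 normalized counts in the libraries labelled DKO. The first 2 lay below all controls and DKO 3 within them, and the log2 fold change was -0.37 (SE 0.202, 95% interval -0.82 to 0.0726, adjusted p = 0.302).

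The Wnt targets overlapped the controls in the libraries labelled DKO. Axin2 had 164.1, 79.67 and 122.4 normalized counts (log2 fold change -0.30, SE 0.325, 95% interval -1.02 to 0.413). Tbx3 had 474.4, 232.3 and 637.4 (-0.0084, SE 0.361, 95% interval -0.805 to 0.788). Lgr5 had 104.1, 58.35 and 69.8 (0.25, SE 0.279, 95% interval -0.369 to 0.863). DKO 2 was the lowest of all 10 libraries for Axin2 and Tbx3, and DKO 3 was the highest DKO library for 7 of the 10 genes.

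The libraries labelled DKO and p65 KO share floxed p65 and differ in Nrf2, and they were compared directly. Glul, Slc1a2 and Cyp2e1 fell in DKO relative to p65 KO, and no gene rose, where 0.968% of all genes were called lower and 1.78% in either direction. Glul fell by 1.16 on the log2 scale (SE 0.171, 95% interval -1.53 to -0.777, adjusted p = 0.00892). The DKO values of Glul, 5739 to 6785 normalized counts, were all under the lower p65 KO value of 12850. Slc1a2 fell by 1.38 (SE 0.319, 95% interval -2.09 to -0.678, adjusted p = 0.0396) and Cyp2e1 by 1.06 (SE 0.223, 95% interval -1.55 to -0.571, adjusted p = 0.0296). In 6 of the 10 genes (Glul, Oat, Lhpp, Slc1a2, Axin2 and Cyp2e1) all DKO libraries lay below both p65 KO libraries, against 20.1% of all genes.

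Oat (-1.15, SE 0.32, adjusted p = 0.0704) and Lhpp (-0.99, SE 0.33, adjusted p = 0.118) had log2 fold changes of similar size between DKO and p65 KO but did not pass. Axin2 (-0.71, adjusted p = 0.265), Tbx3 (-0.50, adjusted p = 0.489), Cyp1a2 (-0.34, adjusted p = 0.456), Rhbg (-0.32, adjusted p = 0.735) and Lgr5 (0.13, adjusted p = 0.837) did not pass either. Single libraries decided these calls. Without p65 KO 2 none of the 10 genes was called, and the adjusted p of Glul was 0.0677 at a log2 fold change of -1.05. Slc1a2 lost its call without control 3 (adjusted p = 0.0558), p65 KO 1 (0.145), p65 KO 2 (0.142), DKO 1 (0.128) or DKO 2 (0.0716). Cyp2e1 lost its call without p65 KO 1 (adjusted p = 0.0877), p65 KO 2 (0.147) or DKO 1 (0.097) and, with a log2 fold change of -0.90, without DKO 2 (0.0456). Without DKO 3, 5 genes were called lower, Oat and Lhpp in addition to these.

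**Figure D2:**
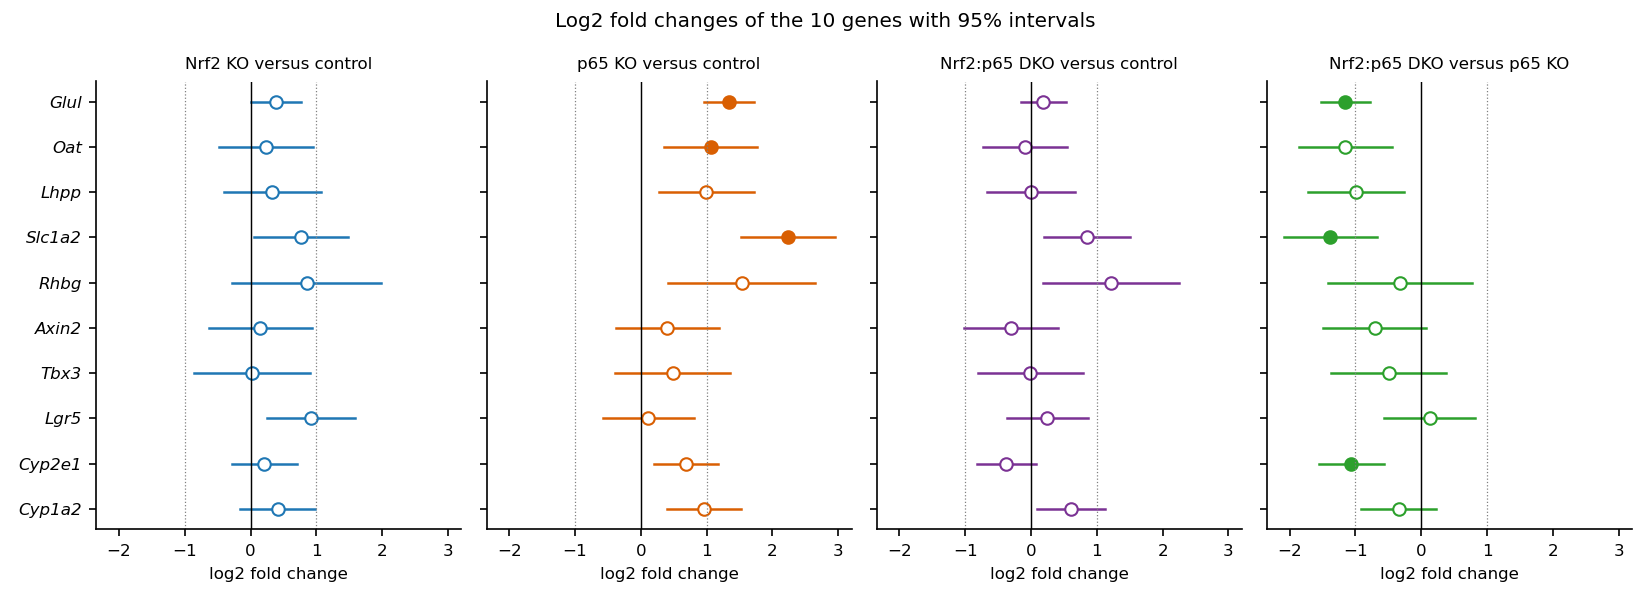
Log2 fold changes (points) of the 10 genes in 4 comparisons with their 95% intervals (lines), from edgeR's quasi-likelihood fit; filled points were called and dotted lines mark log2 fold changes of -1 and 1. Filled points are Glul, Oat and Slc1a2 for p65 KO versus control and Glul, Slc1a2 and Cyp2e1 for DKO versus p65 KO.

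Against the libraries labelled Nrf2 KO, none of the 10 genes was called in DKO, where 0.433% of all genes were. An unadjusted p under 0.05 was obtained for Lgr5 (log2 fold change -0.67, SE 0.302, adjusted p = 0.343) and Cyp2e1 (-0.58, SE 0.224, adjusted p = 0.266), and DESeq2 and limma called 0. Lgr5 was also the 1 gene whose DKO libraries all lay below both Nrf2 KO libraries, where 16.4% of all genes did. Glul differed by -0.20 (SE 0.173, 95% interval -0.578 to 0.186).

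Whether the difference with Nrf2 loss depended on p65 was tested by the interaction, the log2 fold change of DKO over p65 KO minus that of Nrf2 KO over control. All 10 estimates were below 0, and Glul passed with -1.54 (SE 0.243, 95% interval -2.08 to -1.0, adjusted p = 0.0281), where 0.191% of all genes were called lower and 0.455% in either direction. The fitted level of Glul was 1.3-fold that of control in Nrf2 KO, which did not pass, and 0.449 of that of p65 KO in DKO. Slc1a2 had the largest interaction estimate (-2.15, SE 0.455, adjusted p = 0.0786), followed by Oat (-1.39, SE 0.454, adjusted p = 0.234), Lhpp (-1.32, SE 0.468, adjusted p = 0.257) and Cyp2e1 (-1.27, SE 0.316, adjusted p = 0.124). The interaction call of Glul was lost without control 2 (adjusted p = 0.0774), control 3 (0.0575), Nrf2 KO 2 (0.127), p65 KO 1 (0.106), p65 KO 2 (0.101) or DKO 1 (0.0606). All comparisons use the same 10 libraries, so these results share their data.

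Within genotypes, the innermost pericentral genes shared their highest library in part. Control 1 was the highest control for all 5 of Glul, Oat, Lhpp, Slc1a2 and Rhbg, and p65 KO 2 the higher p65 KO library for all 5. Nrf2 KO 2 was the higher Nrf2 KO library for 4 of the 5, all but Lhpp, and DKO 3 the highest DKO library for 4, with Rhbg highest in DKO 1. Over the 10 libraries, which share 4 genotypes, the Pearson correlation of log2 normalized counts was 0.951 between the neighbours Oat and Lhpp, 0.939 between Glul and Slc1a2 and 0.828 between Glul and Oat. It was 0.309 between Glul and Axin2, 0.287 between Glul and Tbx3 and -0.08 between Glul and Lgr5. Among 10175 other genes averaging 50 or more normalized counts, those most like Glul over the 10 libraries were Ccdc127 (r = 0.968), Efhd2 (0.965), Fgfrl1 (0.958), Polr2h (0.953) and Galnt7 (0.945). Efhd2, which encodes a calcium-binding EF-hand protein, had 593.0 to 669.7 normalized counts in the controls, 1443 and 1800 in the libraries labelled p65 KO and 575.4 to 695.7 in those labelled DKO. These correlations describe the libraries and were given no test.

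The wider set of pericentral genes had a median near 0 in the libraries labelled p65 KO, with calls in both directions. Of 22 other pericentral genes tested, 5 were called higher and 1 lower. Over all genes tested, 5.05% were called higher and 6.59% in either direction. The median log2 fold change of the 22 genes was 0.031, beside a median of 0.00090 over all genes. Cyp7a1, the rate-limiting enzyme of bile acid synthesis, rose by 3.17 on the log2 scale (SE 0.64, adjusted p = 0.011), Cyp2a5, a coumarin hydroxylase, by 2.29 (SE 0.571, adjusted p = 0.0244) and Slc13a3, a dicarboxylate transporter, by 2.22 (SE 0.463, adjusted p = 0.0125). Gulo, an enzyme of ascorbate synthesis, rose by 1.02 (SE 0.244, adjusted p = 0.0213) and Ahr, the aryl hydrocarbon receptor, by 1.01 (SE 0.308, adjusted p = 0.0498). Ahr was not called by limma. Cyp3a11, a major drug-metabolising P450, fell by 1.05 (SE 0.262, adjusted p = 0.0242). Of 18 periportal genes, none was called higher and Cdh1, the adhesion molecule E-cadherin, was called lower (-1.02, SE 0.222, adjusted p = 0.0148), with a list median of 0.034. By the adjusted p alone, 2 periportal genes were higher, where 8.13% of all genes were.

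The libraries labelled DKO differed from the controls in these wider lists although the 10 genes did not pass there. Of the 22 other pericentral genes, 2 were called higher, Cyp7a1 (3.19, SE 0.61, adjusted p = 0.0163) and Slc13a3 (1.83, SE 0.432, adjusted p = 0.0345). A further 4 fell: Csad, an enzyme of taurine synthesis (-1.64, SE 0.177, adjusted p = 0.00105), Nr1i3, the nuclear receptor CAR (-1.48, SE 0.166, adjusted p = 0.00133), Cyp2c37 (-1.12, SE 0.231, adjusted p = 0.0216) and Aldh1a1, a retinaldehyde dehydrogenase (-1.07, SE 0.243, adjusted p = 0.0301). Over all genes tested, 2.38% were called in either direction. The median of the list was -0.488, with 5 of 22 genes above 0, beside a median of 0.0246 over all genes. Of 18 periportal genes, 2 were called higher, the serine dehydratase gene Sds (1.35, SE 0.324, adjusted p = 0.0363) and Aldh1b1 (1.28, SE 0.281, adjusted p = 0.0271). By the adjusted p alone, 6 periportal genes passed and all were higher, where 2.61% of all genes were higher by this rule. Among them were the urea cycle genes Asl (1.00 after rounding but under the fold threshold, SE 0.163, adjusted p = 0.00791), Ass1 (0.96, SE 0.131, adjusted p = 0.0031) and Cps1 (0.72, SE 0.153, adjusted p = 0.0248). These urea cycle genes also lay above every control in both libraries labelled p65 KO and both labelled Nrf2 KO. Without overlap, 26.2% of all genes were higher in p65 KO and 14.8% in Nrf2 KO. For Ass1 the ranges were 109400 to 121600 in p65 KO and 120900 to 130900 in Nrf2 KO, against at most 99460 in the controls. The periportal median was 0.373, with 15 of 18 genes above 0. In the libraries labelled Nrf2 KO, Nr1i3 was the 1 other pericentral gene called (-1.22, SE 0.188, adjusted p = 0.0172). However, 11 of these 22 genes had an unadjusted p under 0.05 in Nrf2 KO, beside 9 in p65 KO and 11 in DKO. Their median in Nrf2 KO was -0.0704, with 10 of 22 above 0. No periportal gene was called in Nrf2 KO by edgeR, DESeq2 or limma, with 3 at an unadjusted p under 0.05. Over all genes tested, 0.55% were called in Nrf2 KO.

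**Figure D3:**
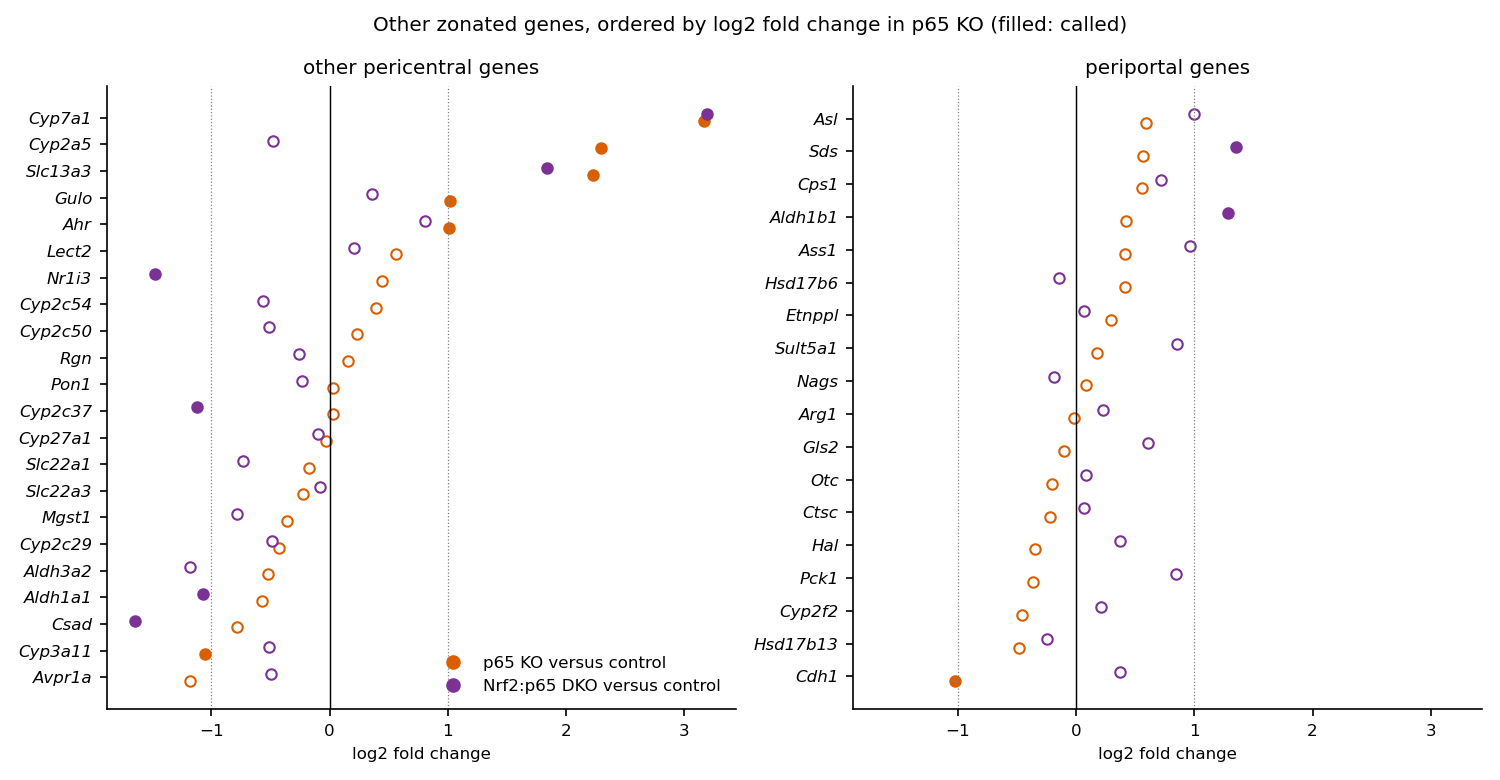
Log2 fold changes against control of the 22 other pericentral genes (left) and 18 periportal genes (right), in libraries labelled p65 KO and DKO, ordered by the p65 KO value; filled points were called and dotted lines mark -1 and 1. In DKO the pericentral points lie mostly to the left of 0 (median -0.488) and the periportal points mostly to the right (median 0.373).

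Library by library, the lists gave different orders. The median log2 ratio of Glul, Oat, Lhpp, Slc1a2 and Rhbg to their control means was 1.24 and 1.44 in the libraries labelled p65 KO, above all others, which ranged from -0.459 in control 2 to 0.62 in Nrf2 KO 2. For the 22 other pericentral genes this median was -0.136 and 0.187 in the libraries labelled p65 KO, near the range of the controls (-0.206 to 0.114). Among the libraries labelled DKO it was -0.684, -1.09 and 0.176, so that DKO 1 and DKO 2 were the lowest of all libraries and DKO 3 was within the p65 KO range. The periportal median followed the opposite order, at 0.435, 0.822 and 0.145 in DKO 1, 2 and 3. The 4 midlobular genes (Hamp, Hamp2, Igfbp2 and Cyp8b1) were not called in any comparison with control by edgeR, DESeq2 or limma, although 2 had an unadjusted p under 0.05 in each of Nrf2 KO and p65 KO and 0 in DKO. Their median was highest in the libraries labelled Nrf2 KO, at 0.635 and 0.808.

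**Figure D4:**
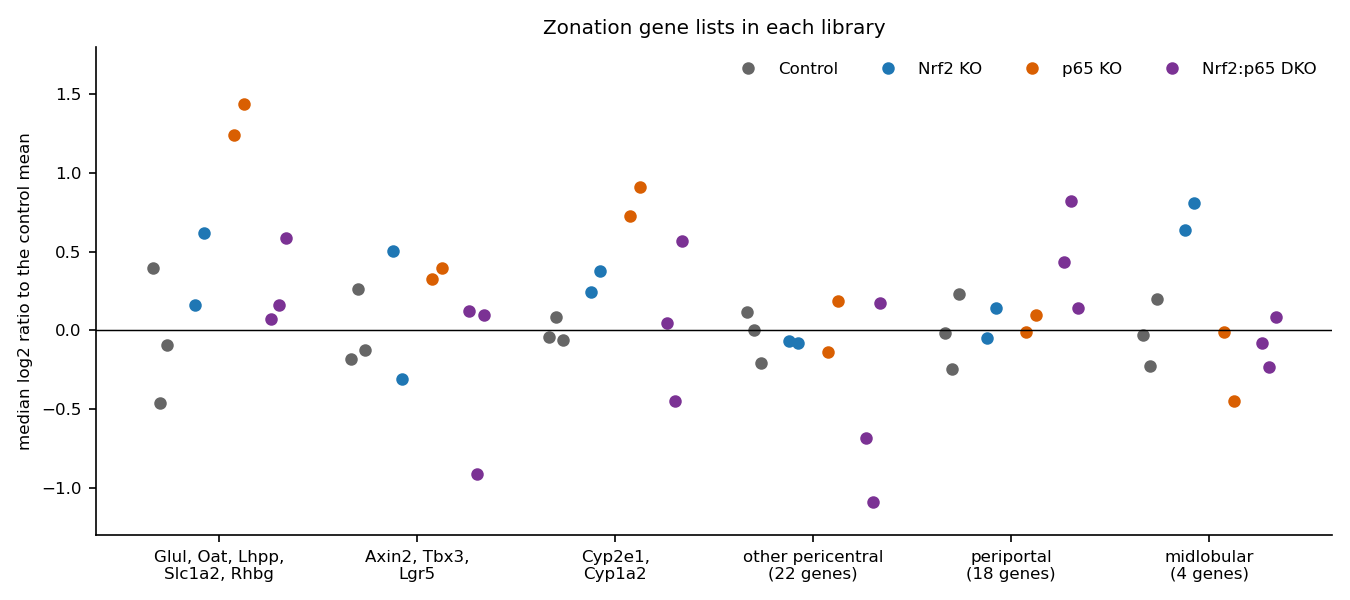
Median log2 ratio to the control mean of each zonation list in each of the 10 libraries, coloured by genotype as labelled. The 5 innermost pericentral genes are highest in the p65 KO libraries (1.24 and 1.44), whereas the 22 other pericentral genes are lowest in 2 of the 3 DKO libraries (-0.684 and -1.09).

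The metabolic neighbours of Glul, Oat and Slc1a2 were followed with a list of 22 tested genes of glutamine, glutamate and proline handling, which includes these 3. In the libraries labelled p65 KO, 5 were called higher and none lower, beside 5.05% of all genes called higher. These 5 include Glul, Oat and Slc1a2, and without those, 2 of 19 were called higher, among them Asns, asparagine synthetase (2.06, SE 0.582, adjusted p = 0.0381). By the adjusted p alone, the alanine aminotransferase gene Gpt2 (0.91, SE 0.161, adjusted p = 0.00624) and the glutamine transporter gene Slc38a3 (0.77, SE 0.14, adjusted p = 0.00698) also passed. In the libraries labelled DKO none was called with the fold threshold, nor by DESeq2 or limma among the 19 genes other than these 3, of which 9 had an unadjusted p under 0.05. In DKO, 3 passed by the adjusted p alone, Gpt2 (0.74, SE 0.147, adjusted p = 0.0187), Slc38a3 (0.72, SE 0.127, adjusted p = 0.0115) and Gpt (0.44, SE 0.109, adjusted p = 0.0399). Among 7 tested genes around the aryl hydrocarbon receptor, which drives Cyp1a2, Ahr was the 1 called higher in the libraries labelled p65 KO, at 1023 and 1284 normalized counts against 531.0 to 629.5 in the controls, and Nqo1 the 1 called lower in those labelled DKO. In p65 KO, DESeq2 called 1 of these 7 genes higher and limma 0. In DKO, 2.38% of all genes tested were called in either direction.

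The Wnt pathway itself was read from its ligands to its targets. Of 9 tested genes of Wnt ligands, R-spondins and their secretion, 1 was called higher in the libraries labelled p65 KO and 1 in those labelled DKO, and both calls were Wnt2, a ligand of sinusoidal and central vein endothelium. For this and the receptor list below, 5.05% of all genes tested were called higher in p65 KO. In DKO, 2.38% were called in either direction. Wnt2 had 4.417, 3.933 and 4.67 normalized counts in the controls, 14.83 and 13.74 in the libraries labelled Nrf2 KO, 32.51 and 34.97 in those labelled p65 KO and 27.35, 24.69 and 10.3 in those labelled DKO. It was low in every library and higher than the controls in all 7 others, with log2 fold changes of 2.92 (SE 0.559, adjusted p = 0.00863) in p65 KO and 2.23 (SE 0.531, adjusted p = 0.0356) in DKO. Its level was below that set for naming genes, and it was singled out after its values were seen. Among 12 tested receptor genes other than Lgr5, 2 were called higher in the libraries labelled p65 KO, the Frizzled genes Fzd4 (1.30, SE 0.164, adjusted p = 0.00173) and Fzd8 (1.28, SE 0.302, adjusted p = 0.02), and none in those labelled DKO or Nrf2 KO, where 3 each had an unadjusted p under 0.05. DESeq2 called 1 receptor gene higher in Nrf2 KO and 0 in DKO, and limma 0 in both.

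Of 21 tested genes of β-catenin transduction and TCF factors, none was called against control in any genotype, with 4, 5 and 3 at an unadjusted p under 0.05 in Nrf2 KO, p65 KO and DKO. DESeq2 called 1 higher in p65 KO and 0 in the others, and limma 0 in all 3. β-catenin itself, Ctnnb1, had 6598 to 6985 normalized counts in the controls and 7230 and 7101 in the libraries labelled p65 KO (log2 fold change 0.067, SE 0.0972, 95% interval -0.147 to 0.282). Of 10 tested feedback and target genes other than Axin2, Tbx3 and Lgr5, 2 were called higher in the libraries labelled p65 KO. Over all genes tested, 5.05% were called higher there. Rnf43, a ubiquitin ligase that removes Frizzled receptors, had 411.9, 557.6 and 411.9 normalized counts in the controls and 913.3 and 929.1 in the libraries labelled p65 KO, a log2 fold change of 1.00 at the fold threshold (SE 0.224, adjusted p = 0.0165). Ccnd1, cyclin D1, rose by 2.02 (SE 0.492, adjusted p = 0.0224). Notum, a Wnt deacylase with pericentral expression, differed by 0.24 (SE 0.209, 95% interval -0.223 to 0.697). None of these 10 was called in the libraries labelled DKO or Nrf2 KO, where 1 and 4 had an unadjusted p under 0.05. DESeq2 called 1 lower in DKO and 0 in Nrf2 KO, and limma 0 in both.

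Markers of other liver cells moved with genotype in the same libraries. The summed normalized count of 10 markers of Kupffer cells and macrophages was 346.8 to 903.7 in the controls, 243.3 to 765.2 in the libraries labelled Nrf2 KO, 4313 to 5841 in those labelled p65 KO and 1574 to 2779 in those labelled DKO. All 10 were called higher in p65 KO and 5 in DKO. Beside these and the marker counts below, 5.05% of all genes tested were called higher in p65 KO. In DKO, 2.38% were called in either direction. The 7 sinusoidal endothelial markers summed to 573.1 to 1237 in the controls and 2780 to 3954 in the libraries labelled p65 KO, where all 7 were called higher, and to 1459 to 2077 in those labelled DKO, where 1 was. The 6 markers of central vein endothelium, the cells next to the innermost hepatocytes, summed to 24.29 to 48.56 in the controls, 37.99 to 62.28 in Nrf2 KO, 170.1 to 198.1 in p65 KO and 81.24 to 96.78 in DKO, and 3 of 6 were called higher in p65 KO and 1 in DKO. This marker list holds Wnt2, Wnt9b and Rspo3 of the ligand list. Stellate cell markers were called higher for 5 of 7 genes in p65 KO (1599 to 1604 summed, against 142.5 to 336.2 in the controls) and for 1 in DKO (257.5 to 718.1). The hepatocyte markers ranged from 3596000 to 3865000 in p65 KO and from 3270000 to 4637000 in the controls. No defining marker of Kupffer cells or endothelium was at 0 throughout a group, and Col1a1, 1 of the 7 stellate markers, was at 0 in all controls. The part of these cells in the values of the 10 genes and of Wnt2 was not tested.

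**Figure D5:**
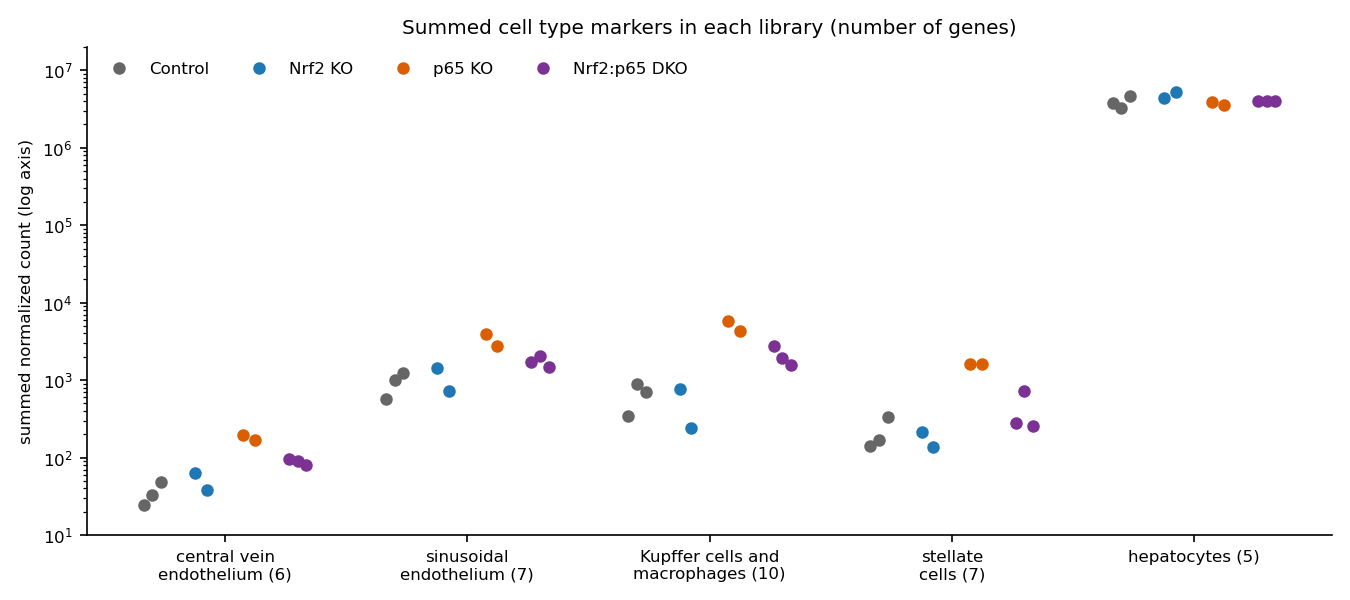
Summed normalized counts (log axis) of marker genes of 5 cell types in each library, coloured by genotype as labelled. Markers of Kupffer cells and macrophages reach 4313 to 5841 in the p65 KO libraries against at most 903.7 in the controls, whereas the hepatocyte markers overlap between these groups.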

How the data were processed

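Poly-A RNA of 10 hepatocyte libraries was sequenced as single-end reads. The authors quantified transcripts with Salmon 1.10.3 against GRCm39 and the GENCODE annotation, and DESeq2 1.42.1 is named in the submitters' processing notes. The deposited table holds 1 estimated count per gene and library, already whole numbers. It is called normalized, but its library totals (33707165 to 49897382) and median-of-ratios size factors (0.879 to 1.26) differ between libraries, so the values were used as unnormalized counts. Of 21939 genes, 6302 had 0 counts in all libraries.

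Genes with a summed count of at least 10 (13641) were fitted with edgeR 4.0.16 (R 4.3.3), with TMM scaling and 1 quasi-likelihood model of the 4 genotypes, and p-values were adjusted by Benjamini-Hochberg over all 13641. Genes were called at an adjusted p no higher than 0.05 together with an absolute log2 fold change of 1 or more. Intervals are 95% intervals from the fitted standard errors. The p-values rest on the spread between mice of the same genotype, pooled over the 4 genotypes in 1 fit and with information shared across genes. Groups of 2 libraries limit the precision. Alternatives were DESeq2 1.42.0, limma 3.58.1, other scalings and filters, a replicate block, fits of single pairs of genotypes, and omission of each library in turn. The steps were tested on simulated data.

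The 10 genes, the gene lists and the tests were chosen with earlier results of these data known. From the other lists, genes were named that passed both thresholds at a mean of at least 50 normalized counts, at most 5 per list and comparison. Wnt2, Asl, Ass1, Cps1, Gpt, Gpt2, Slc38a3, Ctnnb1, Notum and Col1a1 fall outside this rule and were named after their values were seen. Promoter windows came from RefSeq (GRCm38.p6) and gene positions from the GENCODE annotation of GRCm39. The values of 1 gene of the lists are not reported here.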

Additional observations from a re-analysis of the deposited data

Results flagged for a closer look

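The log2 fold change with Nrf2 loss differed with the p65 genotype for Glul, by an interaction of -1.54 (SE 0.243, adjusted p = 0.0281, edgeR quasi-likelihood test). Its log2 fold change was 0.38 for Nrf2 KO versus control and -1.16 for DKO versus p65 KO. The interaction call of Glul depended on single libraries. It was lost, for example, without control 2 (adjusted p = 0.0774), control 3 (0.0575) or DKO 1 (0.0606), and with the replicate block (0.0854). Efhd2, which encodes a calcium-binding protein and was among the 5 genes most like Glul over the 10 libraries, had an interaction of -1.59 (SE 0.19, adjusted p = 0.00794). Efhd2 was chosen for its likeness to Glul in the same libraries and is not independent of it. No group had more than 3 libraries, so no library was tested as an outlier.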

How the results depend on the processing

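In p65 KO versus control, 3 of the 10 genes were called, against 5 by DESeq2, 6 with scaling to equal totals, 5 with only the genotypes compared in the fit, and 2 to 4 when 1 library was left out. In DKO versus p65 KO, 3 were called, against 5 by DESeq2, 5 with equal totals, 2 with only the genotypes compared (Cyp2e1 lost, -1.05, adjusted p = 0.104) and 0 to 5 when 1 library was left out. For the interaction, 1 was called, against 3 by DESeq2, 3 with equal totals, 2 without a filter on low counts and 0 to 4 when 1 library was left out. In the other 3 comparisons 0 were called in every setting tried.

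Samples of different genotypes share replicate numbers, but these did not pair them: deviations from the group means over 10185 genes correlated at -0.232 to 0.113 in 13 same-number pairs, and 1 pair exceeded 0.1. With the replicate block, 3 genes were called in p65 KO versus control (Glul, Lhpp and Slc1a2, with Oat at an adjusted p of 0.0502), 2 in DKO versus p65 KO (Slc1a2 lost, adjusted p = 0.0697) and 0 for the interaction (Glul, adjusted p = 0.0854).

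Signs turned only among values that were not called. In Nrf2 KO versus control, Tbx3 was -0.067 by limma with either prior count. In DKO versus control, Lhpp was -0.024 by limma with either prior count, -0.084 with equal totals and -0.049 with the block, and Tbx3 was 0.034 with equal upper quartiles and 0.0014 with a mean of at least 10 counts. In DKO versus p65 KO, Lgr5 was -0.15 with equal totals, and in DKO versus Nrf2 KO, Slc1a2 was -0.024 with the block. Leaving out 1 library gave ranges that spanned 0. In Nrf2 KO versus control these were -0.31 to 0.51 for Axin2 and -0.60 to 0.46 for Tbx3. In p65 KO versus control they were -0.034 to 0.87 for Tbx3 and -0.13 to 0.33 for Lgr5. In DKO versus control they were -0.52 to 0.16 for Oat, -0.41 to 0.32 for Lhpp, -0.57 to 0.028 for Axin2, -0.35 to 0.30 for Tbx3 and -0.024 to 0.41 for Lgr5. In DKO versus p65 KO they were -0.88 to 0.026 for Tbx3 and -0.14 to 0.38 for Lgr5. In DKO versus Nrf2 KO they were -0.43 to 0.087 for Glul, -0.33 to 0.69 for Slc1a2, -0.22 to 1.17 for Rhbg, -0.81 to 0.012 for Axin2, -0.47 to 0.59 for Tbx3 and -0.090 to 0.46 for Cyp1a2. For the interaction of Tbx3 the range was -0.95 to 0.10. The cause was not tested.

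Over all genes, DESeq2 called 135 in place of 75 in Nrf2 KO versus control, 534 in place of 325 in DKO versus control, 453 in place of 243 in DKO versus p65 KO, 296 in place of 59 in DKO versus Nrf2 KO and 249 in place of 62 for the interaction. Separate fits called 215, 105 and 18 in the 3 comparisons of DKO, with control, p65 KO and Nrf2 KO. Without a filter, 112 were called in DKO versus Nrf2 KO and 137 for the interaction, and with the block 37 in the former. Equal totals called 504 in DKO versus p65 KO and 118 for the interaction. Leaving out 1 library also moved these totals. In Nrf2 KO versus control the 75 became 37 without control 1, 40 without control 2, 32 without Nrf2 KO 1 and 18 without Nrf2 KO 2. In p65 KO versus control the 899 became 498 without control 1 and 325 without p65 KO 1. In DKO versus control the 325 became 147 without control 1 and 193 without control 2. In DKO versus p65 KO the 243 became 70 without p65 KO 1, 72 without p65 KO 2 and 112 without DKO 1. In DKO versus Nrf2 KO the 59 became 21 without Nrf2 KO 1 and 18 without Nrf2 KO 2. For the interaction the 62 became 8 without Nrf2 KO 2, 10 without p65 KO 1, 12 without p65 KO 2, 19, 25 and 39 without control 1, 2 and 3, 41 without Nrf2 KO 1 and 119 without DKO 2. Equal totals moved the median log2 fold change of all genes by 0.177 in p65 KO versus control and by -0.268 in DKO versus p65 KO, and the share of calls that were higher from 45.7% to 17.1% in the latter and from 57.2% to 46.4% in DKO versus control. Rhbg and Lgr5 rested on under 150 normalized counts per library.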

Other observations

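Some marker lists with no part in the comparisons above also varied. The summed normalized count of 4 erythroid markers was 51.9 to 181.9 in the controls, 35.92 to 94.48 in the libraries labelled p65 KO and 163.6 to 1141 in those labelled DKO. None was called in DKO by edgeR, 3 had an unadjusted p under 0.05, and DESeq2 called 3 higher. Neutrophil markers summed to 2.802 to 4.917 in the controls, 10.4 to 50.8 in p65 KO and 8.01 to 29.45 in DKO. Cholangiocyte markers summed to 268.5 to 393.1 in the controls and 151.3 to 196.4 in Nrf2 KO, markers of T and NK cells to at most 25.25 in any library, and B cell markers to at most 9.143.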
